A study of Mus musculus with 18 samples.

Results

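The uterine transcriptome of mice that lack Tsc2 in the uterus (KO) was compared with that of wild-type mice (WT) as 1 contrast, the KO minus WT difference averaged with equal weight over 3 hormone states. All 18 of the 18 libraries entered, 3 in each of 6 groups: KO and WT uteri of animals with their ovaries left in place (intact), KO and WT uteri of animals whose ovaries were removed (ovx), and KO and WT uteri of animals whose ovaries were removed and that carried an estradiol pellet (E2). All mice were 12 weeks old and of a mixed 129Sv X C57BL/6 background. Ovaries were removed at 4 weeks of age, and the pellet held 0.5 mg of 17β-estradiol, was of a 90-day release type and was left for 8 weeks. RNA came from cross sections of the whole uterus, so every cell type of the wall is in each library; the sources used here give neither the promoter that drives the recombinase nor the exons deleted, so which cells lose Tsc2 is not known. The labels do not say that the libraries come from separate animals, so the p-values measure the spread between these libraries. Of 25791 genes in the table, the 13898 with at least 1 FPKM (sequenced fragments scaled to transcript length and library size) in at least 3 libraries were tested, and the genes described are those whose difference averaged over the states passed the test and had 1 sign in every state.

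TSC2 and its partner TSC1 form a complex that switches off the small GTPase RHEB, and loss of either lets RHEB keep the kinase complex mTORC1 active. mTORC1 is recruited to the lysosome surface by the Rag GTPases, which are anchored there by the Ragulator complex and read amino acid supply together with folliculin. The MiT transcription factors (MITF, TFEB, TFE3) drive lysosome genes through E-box sequences of the CLEAR type, and in human tumors with TSC loss, among them lymphangioleiomyomatosis, melanocytic MiT targets such as GPNMB and MLANA are used as markers.

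Total FPKM per library lay between 216032 and 591668, and between 4228 and 7395 genes were listed at 0; FPKM carry no read depth, so the depth is unknown. In the library WT E2 replicate 2, 1 transcript (LOC236598) held 26.63% of the FPKM total. Epithelial, smooth muscle and stromal marker genes were present in every group, as the tissue label requires: Epcam had 9.37 to 184.2 FPKM and Acta2 31.9 to 639 FPKM over the 18 libraries. Within each state, the library with the lowest mean correlation with its own group was WT intact replicate 4 (0.933), KO ovx replicate 4 (0.954) and KO E2 replicate 2 (0.933), against 0.942 to 0.988 for the other libraries, and lead results are also given without these 3. These 3 were chosen from the same values, so a larger number of calls without them follows in part from the selection. Shared steps in the lowest FPKM values split the libraries into 4 sets. In 5 combinations of state and set there were KO and WT libraries side by side, and the within-set differences come from these.

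Averaged over the states, 820 of 13898 genes (5.9%) passed an adjusted p under 0.05 in limma's test of log2(FPKM + 1) with Benjamini-Hochberg adjustment. Of these, 579 (4.17% of the genes tested) were higher in KO uteri and 241 (1.73%) lower. In 553 of the 820 (3.98% of the genes tested) the difference had 1 sign in intact, ovx and E2 animals, with 420 higher (3.02%) and 133 lower (0.957%). The share with 1 sign was 67.4% of the called genes and 25.5% of all genes tested. Genes were called on the average of these same differences, so a higher share among them follows in part from the selection. The balance of directions depended on scaling: 70.6% of called genes were higher in KO with FPKM as deposited, 60.7% after median-ratio scaling of the libraries and 52.9% after quantile normalization. The plot of averaged difference against adjusted p has the 553 in blue.

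**Figure D1:**
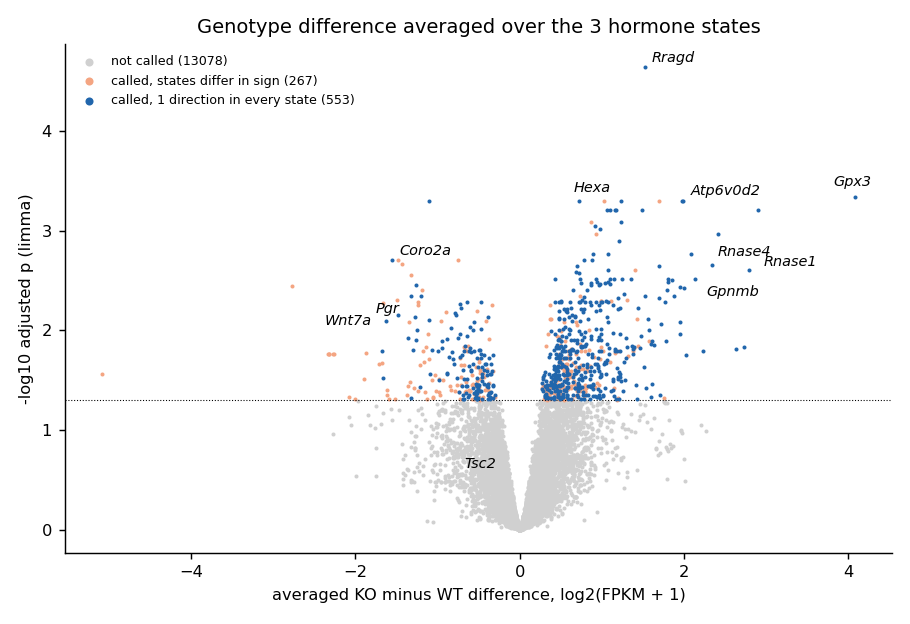
Averaged KO minus WT difference of log2(FPKM + 1) (horizontal axis) against −log10 of limma's adjusted p (vertical axis) for the 13898 genes tested. Blue points are the 553 called genes with 1 sign in every state, orange points the 267 called genes whose states differ in sign, grey points the rest, and the dotted line is the threshold of 0.05; Rragd stands highest and Gpx3 farthest to the right.

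The 553 genes drew on all states: the state difference was largest in size in intact animals for 180 of them, in ovx for 185 and in E2 for 188. An F test of the genotype by state terms found a difference between states in 75 of the 553 (13.6%), against 1407 of 13898 genes tested (10.1%). Tested within a single state, 98 of the 553 passed in intact animals (background over all genes tested 2.18%), 142 in ovx (5.42%) and 191 in E2 (8.49%), and 175 passed in no single state. In 114 genes (0.82% of those tested) the 3 KO libraries lay wholly on 1 side of the 3 WT libraries in every state, 100 above (0.72%) and 14 below (0.101%). Of these 114, 107 were among the called genes. The averaged call uses the same libraries as the single-state tests and this separation, so both overlaps follow in part from the selection.

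Tsc2 itself (chromosome 17, 24686894 to 24769574 in the deposited table, for which no genome build was named) was measured first, as a check of the labels. In intact animals it had 1.88, 1.99 and 1.62 FPKM in KO uteri, against 2.51, 2.25 and 2.04 FPKM in WT uteri. In ovx animals the values were 2.98, 3.33 and 2.39 FPKM in KO and 3.24, 3.49 and 3.17 FPKM in WT, and in E2 animals 2.42, 1.75 and 2.28 FPKM in KO and 2.73, 2.38 and 2.66 FPKM in WT. KO libraries lay wholly below WT in the intact state, while 1 KO library stood within the WT range in each of ovx and E2. The averaged difference was −0.18 ± 0.07 (SE, log2 scale), with an exact two-sided permutation p of 0.00275 over 8000 arrangements within states, where the smallest possible is 0.00025; limma's adjusted p over all genes was 0.158. KO means were 0.807, 0.879 and 0.830 times the WT means in intact, ovx and E2 animals, over a gene model that may include undeleted exons. Its partner Tsc1 differed by 0.11 ± 0.08 (limma adjusted p = 0.403). None of the 12 tested genes of the TSC and mTOR complexes was called, which is near the 5.9% of all genes tested.

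In the Rag, folliculin and MiT group 8 of 13 tested genes were called higher in every state and none lower. Of all genes tested, 3.98% were called in either direction with 1 sign. Only these 8 of the 13 had 1 sign in every state, and 10 were higher in KO in intact, 13 in ovx and 10 in E2 animals. The list median was 0.30 in intact, 0.74 in ovx and 0.40 in E2 animals (KO minus WT, log2 scale), against −0.04, 0.09 and −0.05 for all genes tested. Rragd, one of the Rag GTPases (chromosome 4, 33069972 to 33109155 in the table), had the lowest adjusted p of any gene. It had 2.49, 2.35 and 2.95 FPKM in KO and 0.601, 0.394 and 0.221 FPKM in WT uteri of intact animals. In ovx animals it reached 8.49, 5.45 and 12.3 FPKM in KO, against 0.281, 0.455 and 0.337 FPKM in WT. The E2 state held the smallest gap, with 0.962, 0.519 and 0.659 FPKM in KO and 0.225, 0.211 and 0.376 FPKM in WT. Every KO library lay above every WT library of its state, and the averaged difference was 1.52 ± 0.12 (SE; limma adjusted p = 2.28e-05). Its state differences of 1.36, 2.79 and 0.43 themselves differed (F test, adjusted p = 0.00263).

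Flcn, which encodes folliculin, was more even, with differences of 0.54 in intact, 0.61 in ovx and 0.92 in E2 animals. It had 4.85, 5.24 and 6.19 FPKM in KO and 3.16, 4.09 and 3.04 FPKM in WT intact uteri, 8.73, 7.59 and 7.42 FPKM in KO and 5.56, 4.55 and 4.44 FPKM in WT ovx uteri, and 8.56, 4.78 and 6.40 FPKM in KO and 3.22, 2.56 and 3.04 FPKM in WT E2 uteri. The groups did not overlap in any state, and Flcn rose by 0.69 ± 0.10 on average (limma adjusted p = 0.00259). Its binding partners Fnip2 and Fnip1 rose by 0.95 ± 0.22 (adjusted p = 0.0227) and 0.37 ± 0.09 (adjusted p = 0.0355). Rragc, the other called Rag GTPase, rose by 0.70 ± 0.15 (limma adjusted p = 0.0160), and the Ragulator subunits Lamtor1 (2400001E08Rik in the table) and Lamtor3 (Mapksp1) by 0.56 ± 0.13 and 0.45 ± 0.11 (limma adjusted p = 0.0232 and 0.0243). Mitf, the MiT factor of melanocytes and osteoclasts, rose by 0.67 ± 0.18 (limma adjusted p = 0.0375). For Mitf, WT intact replicate 4 had 0.084 FPKM where the other WT intact libraries had 1.80 and 1.85 FPKM. Without the 3 libraries of lowest correlation in their states the Mitf difference was 0.64. Rraga and Rragb, the partner Rag GTPases, did not pass (0.18 ± 0.12 and 0.14 ± 0.12; limma adjusted p = 0.413 and 0.528). Without the 3 libraries of lowest correlation in their states 8 of the 13 were still called, and within library sets 4 were. Over all 13898 genes tested, 1398 and 361 were called with 1 sign in these 2 fits, against 553 with all libraries. Fnip1 passed in 7 and Mitf in 6 of the 18 fits that left out 1 library, while Rragd, Flcn, Fnip2 and Rragc passed in every one. Lamtor3 lost its call in 4 of these fits and Lamtor1 in 2, those without KO intact replicate 3 and WT ovx replicate 1.

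The vacuolar proton pump acidifies lysosomes, and 4 of its 23 tested genes were called higher in every state, against 3.02% of all genes tested. All 4 belong to the membrane-bound V0 sector. Atp6v0d2, a subunit with a tissue-restricted pattern, had 1.31, 1.63 and 4.02 FPKM in KO and 0.305, 0.212 and 0 FPKM in WT intact uteri. Its ovx values were 14.0, 7.79 and 30.4 FPKM in KO and 0.0413, 0.0800 and 0.0431 FPKM in WT, and its E2 values 1.40, 0.344 and 1.03 FPKM in KO and 0.0774, 0.314 and 0.255 FPKM in WT. No KO library fell within the WT range of its state, and the averaged difference was 1.99 ± 0.21 (limma adjusted p = 0.000497). Atp6v0b rose by 1.08 ± 0.16, Atp6v0c by 0.79 ± 0.16 and Atp6v0d1 by 0.78 ± 0.14 (limma adjusted p = 0.00246, 0.0117 and 0.00607). Atp6v1d of the V1 sector passed the averaged test (0.61 ± 0.13, limma adjusted p = 0.0163) but had −0.11 in intact animals, against 1.75 in ovx and 0.19 in E2. The median difference of the list was −0.11 in intact, 1.17 in ovx and 0.09 in E2 animals.

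Among lysosomal hydrolases and membrane proteins, 13 of 52 tested genes were called higher in every state and none lower, against 3.02% higher and 0.957% lower of all genes tested. Hexa, the alpha subunit of beta-hexosaminidase, had 10.6, 11.2 and 14.1 FPKM in KO and 7.73, 10.01 and 6.90 FPKM in WT intact uteri, 21.4, 19.7 and 26.8 FPKM in KO and 4.68, 6.30 and 5.11 FPKM in WT ovx uteri, and 38.3, 18.9 and 38.9 FPKM in KO and 10.8, 13.2 and 11.4 FPKM in WT E2 uteri. KO and WT were separate in every state, and Hexa rose by 1.23 ± 0.14 (limma adjusted p = 0.000508). Ctns, the lysosomal cystine exporter, was also separate in every state, with 4.99, 6.61 and 11.7 FPKM in KO and 1.86, 1.88 and 1.95 FPKM in WT intact uteri, and it rose by 1.11 ± 0.17 (limma adjusted p = 0.00308). The cysteine proteases Ctsk (cathepsin K) and Lgmn (legumain) rose by 1.54 ± 0.40 and 1.44 ± 0.26 (limma adjusted p = 0.0375 and 0.00599). Ctsk passed in 7 of the 18 fits that left out 1 library. Its difference was 1.56 without the 3 libraries of lowest correlation in their states. The membrane glycoproteins Cd63 and Lamp1 rose by 1.31 ± 0.28 and 0.73 ± 0.14 (limma adjusted p = 0.0147 and 0.0101). Psap, the precursor of the saposins, rose by 0.86 ± 0.15, and Npc2, which binds cholesterol inside the lysosome, by 0.72 ± 0.12 (limma adjusted p = 0.00520 for each).

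The remaining called genes of that list were Tpp1, Galc, Ctsa, Cln3 and Mcoln1, with averaged differences between 0.46 (Mcoln1, the lysosomal calcium channel) and 0.75 (Tpp1, a tripeptidyl peptidase). Ctsz, Neu1 and Man2b1 passed the averaged test with states that differed in sign. The list median was 0.08 in intact, 0.64 in ovx and 0.49 in E2 animals. Of 25 autophagy genes, 4 were called higher in every state, against 3.02% of all genes tested. They were Sqstm1 (0.76 ± 0.16), which encodes the cargo receptor p62, Map1lc3b (0.65 ± 0.14), which encodes the membrane protein LC3B, Gabarapl1 (0.95 ± 0.25) and Optn (0.46 ± 0.12). The last pair passed in 4 and 9 of the 18 fits that left out 1 library. Sqstm1 had 59.6, 77.2 and 70.0 FPKM in KO and 27.8, 39.2 and 36.5 FPKM in WT intact uteri. Without the 3 libraries of lowest correlation in their states the counts were 9 of 23 for the proton pump, 22 of 52 for the lysosomal list and 10 of 25 for autophagy. In that fit 1398 of the 13898 genes tested were called with 1 sign, against 553 with all libraries. Within library sets the 3 counts were 4, 11 and 4, where 361 genes were called with 1 sign.

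Macrophages are rich in lysosomes, so their markers are given beside these lists. None of 11 tested macrophage genes was called with 1 sign in every state, which is near the 3.98% of all genes tested. The list median was −0.32 in intact, −0.40 in ovx and 1.5 in E2 animals. Over the 12 macrophage markers, summed FPKM were 29.6 to 44.5 in KO and 72.1 to 82.9 in WT intact uteri, 29.2 to 39.7 in KO and 31.96 to 45.96 in WT ovx uteri, and 634.8 to 1029.4 in KO and 231.2 to 698.6 in WT E2 uteri. The macrophage sums were lower in KO than in WT in intact animals and overlapped in ovx and E2 animals. No macrophage marker was at 0 throughout a group, and their part in the lysosomal differences was not tested. In sections of whole tissue, fewer cells of a type and less RNA per cell cannot be told apart.

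**Figure D2:**
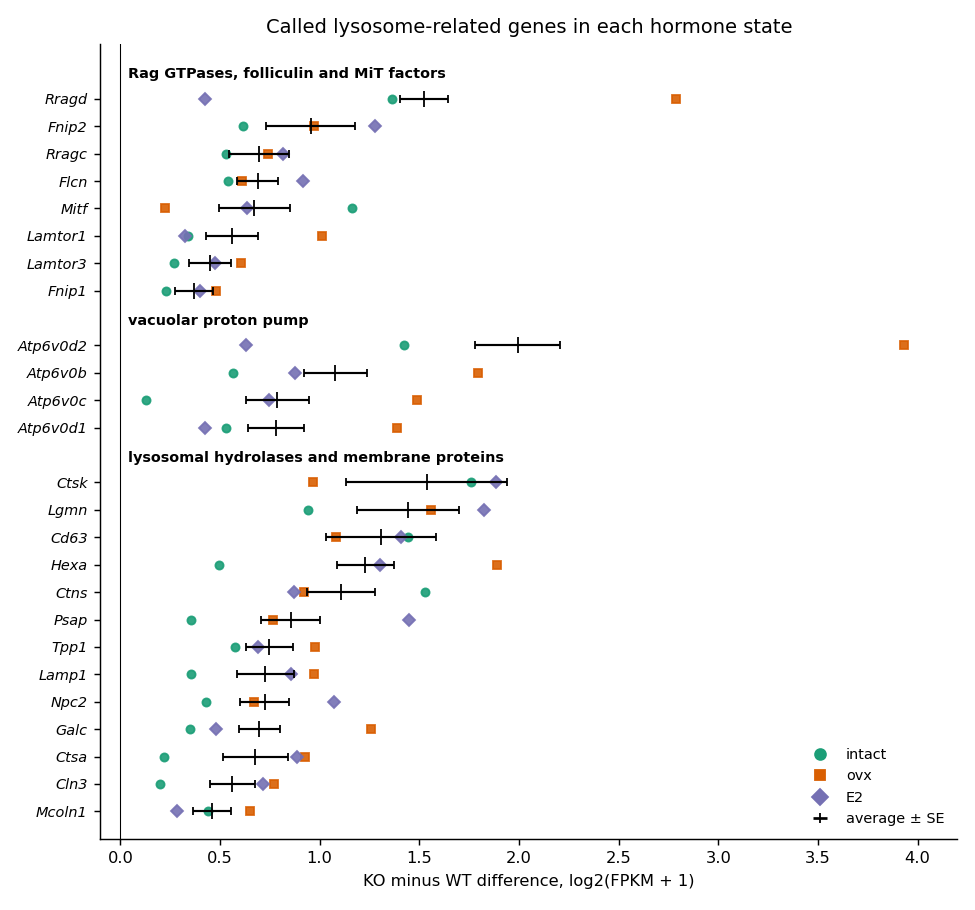
KO minus WT difference of log2(FPKM + 1) in each hormone state (green circles intact, orange squares ovx, purple diamonds E2) and averaged over the states (black tick with SE bar) for the called genes of the Rag, proton pump and lysosomal lists. Every point lies right of 0 by selection, since only genes called with 1 sign are drawn and none was called lower. The ovx values of Atp6v0d2 and Rragd lie farthest right.

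Promoters of these genes were searched for the CLEAR-type E-box, because it is the known binding sequence of MiT factors. The windows were the 250 bases before the annotated start in RefSeq (mouse build GRCm38.p6), read on both strands. Of the 31 called genes of the Rag, proton pump, lysosomal, autophagy and melanocytic lists, 28 had a promoter in the table. TCACGTG was found in 9 of the 28 (32.1%), against 486 of 8749 tested genes with a promoter (5.55%) and 968 of 27025 genes in the whole promoter table (3.58%). A gene counted if any of its annotated starts had a match. The mean number of starts was 1.32 in called list genes, 1.28 in tested genes and 1.22 in the whole table. Among all tested genes of the same lists, called or not, the share was 22.7%. The shorter CACGTG, which every TCACGTG contains, was held by the same 32.1% of called list genes and by 9.82% of tested genes. The M-box TCATGTG was found in 2 of the 28 called list genes (7.14%), 2.30% of tested genes and 3.72% of all genes in the promoter table. These shares describe letters in a window, with no test. Among the 9 genes were 3 of the Rag and folliculin machinery (Rragc, Fnip1 and Lamtor1), 1 of the proton pump (Atp6v0b) and 5 of the lysosome proper (Mcoln1, Lamp1, Lgmn, Ctsa and Cln3). Shown 5′ to 3′ on the strand of the gene are 6 of them, with TCACGTG and its reverse complement CACGTGA in capitals, and in Lamtor1 also the M-box. They lie at chr4:123917183-123917432 (plus strand, Rragc), chr11:54437929-54438178 (plus, Fnip1), chr7:101905587-101905836 (plus, Lamtor1), chr4:117887330-117887579 (minus, Atp6v0b), chr8:3500269-3500518 (plus, Mcoln1) and chr8:13158911-13159160 (plus, Lamp1), each ending at the base before the start.
Rragc: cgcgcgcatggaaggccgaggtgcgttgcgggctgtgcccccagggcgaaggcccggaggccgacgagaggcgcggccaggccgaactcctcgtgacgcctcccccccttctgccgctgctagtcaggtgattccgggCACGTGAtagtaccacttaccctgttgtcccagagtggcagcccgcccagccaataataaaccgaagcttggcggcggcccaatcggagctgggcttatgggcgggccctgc
Fnip1: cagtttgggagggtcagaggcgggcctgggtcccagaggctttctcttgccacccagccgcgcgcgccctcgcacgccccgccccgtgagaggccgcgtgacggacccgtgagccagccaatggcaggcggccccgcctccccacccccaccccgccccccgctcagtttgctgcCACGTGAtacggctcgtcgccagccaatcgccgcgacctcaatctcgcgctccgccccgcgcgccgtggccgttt
Lamtor1: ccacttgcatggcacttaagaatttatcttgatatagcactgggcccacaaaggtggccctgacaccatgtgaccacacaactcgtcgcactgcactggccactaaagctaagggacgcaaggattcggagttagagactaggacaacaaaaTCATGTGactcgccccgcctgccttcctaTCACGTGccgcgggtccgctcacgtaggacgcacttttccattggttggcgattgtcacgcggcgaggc
Atp6v0b: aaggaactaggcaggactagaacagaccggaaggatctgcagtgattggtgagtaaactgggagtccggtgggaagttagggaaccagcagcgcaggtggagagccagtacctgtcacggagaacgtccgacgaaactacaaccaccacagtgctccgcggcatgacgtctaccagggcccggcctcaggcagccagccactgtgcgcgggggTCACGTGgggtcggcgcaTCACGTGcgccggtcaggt
Mcoln1: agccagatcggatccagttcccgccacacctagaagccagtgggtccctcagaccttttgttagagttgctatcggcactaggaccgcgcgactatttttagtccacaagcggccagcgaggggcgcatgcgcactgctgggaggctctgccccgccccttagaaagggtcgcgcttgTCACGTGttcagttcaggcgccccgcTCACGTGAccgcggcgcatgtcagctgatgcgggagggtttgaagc
Lamp1: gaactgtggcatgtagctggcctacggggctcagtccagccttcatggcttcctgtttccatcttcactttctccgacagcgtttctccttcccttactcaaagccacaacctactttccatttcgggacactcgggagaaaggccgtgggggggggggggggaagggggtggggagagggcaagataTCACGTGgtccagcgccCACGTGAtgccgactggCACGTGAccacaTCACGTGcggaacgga
Counting from the start, with −1 as the base before it, the first match begins at −112 in Rragc, −75 in Fnip1, −69 in Lamtor1, −37 in Atp6v0b, −72 in Mcoln1 and −62 in Lamp1. Lamp1 holds 4 matches, Mcoln1 3 (of which 2 overlap on opposite strands), Atp6v0b 2, and each of the others 1. Rragd, the called Rag gene with the largest difference, is not among the genes with a match.

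Markers of melanocytic and lymphangioleiomyomatosis lesions were in part too low to test. Of 12 genes on that list 5 passed the filter on low values. The 4 genes Gpnmb, Ctsk, Mlana and Mitf were called higher in every state, against 3.02% of all genes tested. With a term for library sets, or within library sets, 2 of the 5 were called. Gpnmb, a membrane glycoprotein of melanosomes and lysosomes (chromosome 6, 48986516 to 49008181 in the table), had 7.499, 7.38 and 4.82 FPKM in KO and 0.689, 0.895 and 0.0108 FPKM in WT intact uteri. In ovx animals it had 4.26, 4.92 and 1.07 FPKM in KO and 0.277, 0.311 and 0.298 FPKM in WT, and in E2 animals 43.5, 4.05 and 13.7 FPKM in KO and 1.00, 2.14 and 2.23 FPKM in WT. All KO libraries were above all WT libraries of their state, with an averaged difference of 2.14 ± 0.33 (limma adjusted p = 0.00308). Its state differences were 2.33, 1.63 and 2.45 in intact, ovx and E2 animals. Mlana, which encodes the melanosome antigen MART-1, was listed at 0 in 7 of the 9 WT libraries and above 0 in every KO library, between 0.25 and 4.98 FPKM. Its averaged difference was 1.14 ± 0.20 (limma adjusted p = 0.00552). Within the 5 combinations of state and library set, Gpnmb differed by 1.64 to 2.58 and Mlana by 0.39 to 1.91.

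Among secreted ribonucleases, 7 of 8 tested genes were called higher in every state, against 3.02% of all genes tested. The list median was 2.89 in intact, 1.2 in ovx and 1.46 in E2 animals. Rnase4 had 93.3, 107 and 250.3 FPKM in KO and 22.2, 31.4 and 5.64 FPKM in WT intact uteri, 134, 136 and 71.7 FPKM in KO and 21.4, 24.5 and 18.9 FPKM in WT ovx uteri, and 140.5, 30.01 and 80.3 FPKM in KO and 14.9, 20.7 and 27.0 FPKM in WT E2 uteri. The groups were separate in every state, and Rnase4 rose by 2.34 ± 0.34 (limma adjusted p = 0.00219). Rnase1, a ribonuclease of the pancreatic type, had 10.7, 14.9 and 45.5 FPKM in KO and 0.299, 0.315 and 0 FPKM in WT intact uteri, and it rose by 2.80 ± 0.41 over the states (limma adjusted p = 0.00246). The angiogenin genes Ang, Ang2, Ang3, Ang4 and Ang6 rose by 1.77 to 1.96. They are related genes, and Ang and Rnase4 have 1 shared locus in the table, so reads may have been split among them. Ang4 ran at 0.605 to 1.32 times Ang2 over the 18 libraries.

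Glutathione peroxidases held the largest single change. Gpx3, the secreted form of this antioxidant enzyme (chromosome 11, 54716354 to 54723889 in the table), had 57.7, 72.6 and 79.8 FPKM in KO and 4.33, 4.84 and 6.05 FPKM in WT intact uteri. In ovx uteri it had 457, 369 and 1604 FPKM in KO, against 4.14, 6.50 and 8.31 FPKM in WT. In E2 uteri the groups overlapped, with 749, 151 and 517 FPKM in KO and 22.6, 203 and 127 FPKM in WT. The averaged difference was 4.08 ± 0.42 (limma adjusted p = 0.000456), made up of 3.55, 6.51 and 2.19 in intact, ovx and E2 animals. Gpx6 and Gpx5 rose by 2.90 ± 0.36 and 2.41 ± 0.32 (limma adjusted p = 0.000615 and 0.00108), but each stood in a near-fixed ratio to Gpx3, at 0.0424 to 0.0938 and 0.0212 to 0.0435, so reads shared between these related genes cannot be told apart from expression of their own. Gpx4, the peroxidase of membrane lipids, rose by 0.99 ± 0.20 (limma adjusted p = 0.0109), and no other of the 14 genes tested in that list was called with 1 sign.

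**Figure D3:**
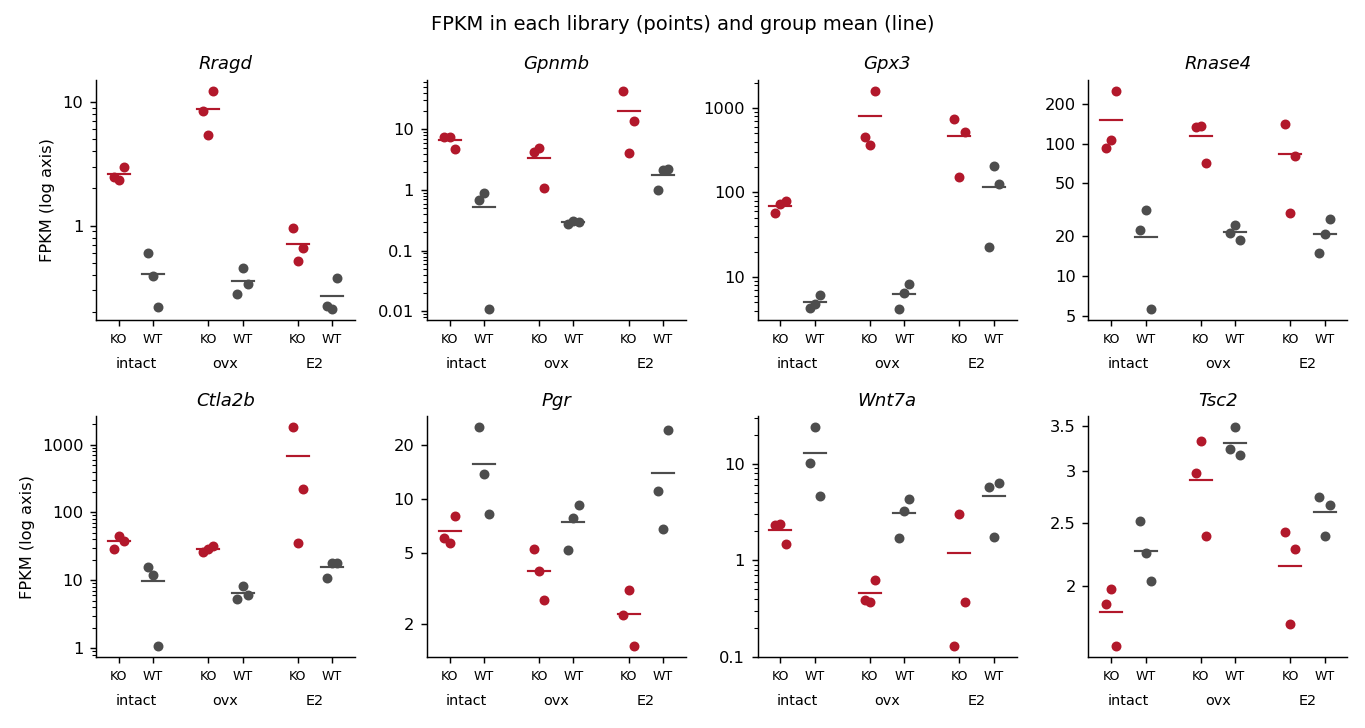
FPKM on a log axis for 8 genes in each of the 18 libraries, KO (red) left of WT (grey) within intact, ovx and E2; each point is a library and each line a group mean. For Rragd, Gpnmb, Rnase4 and Ctla2b the KO points lie above all WT points in every state, Gpx3 overlaps in E2, and the lower genes Pgr and Wnt7a and the deleted gene Tsc2 overlap in at least 1 state.

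Further genes with the largest increases had different roles and were uneven over the states in part. Ctla2b, an inhibitor of cysteine proteases, had 28.6, 44.6 and 38.5 FPKM in KO and 15.7, 12.0 and 1.07 FPKM in WT intact uteri, 26.0, 28.8 and 31.4 FPKM in KO and 5.33, 8.13 and 6.07 FPKM in WT ovx uteri, and 1796, 34.9 and 220.1 FPKM in KO and 10.8, 17.9 and 18.02 FPKM in WT E2 uteri. All KO libraries were higher than the WT libraries of their state, and the averaged difference was 2.73 ± 0.57 (limma adjusted p = 0.0147). Its near copy Ctla2a ran at 0.570 to 0.711 times Ctla2b in all libraries, so the pair counts as 1 signal. Ptgds, a prostaglandin D synthase, rose by 2.23 ± 0.48 (limma adjusted p = 0.0160), with KO above WT in every library of every state. Thbs2, the matrix protein thrombospondin 2, rose by 2.01 ± 0.32, with 161, 15.1 and 53.9 FPKM in KO and 1.85, 3.35 and 3.06 FPKM in WT E2 uteri. Car4, a membrane carbonic anhydrase, rose by 1.98 ± 0.22, with 18.7, 15.8 and 60.9 FPKM in KO and 1.204, 1.10 and 0.872 FPKM in WT ovx uteri.

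For 2 of the largest increases the average came from a single state. Fxyd2, a regulatory subunit of the sodium pump, differed by 0.10 in intact, 5.80 in ovx and 0.36 in E2 animals, and had 71.4, 69.4 and 297 FPKM in KO and 0.846, 1.58 and 0.857 FPKM in WT ovx uteri. Ngp, a granule protein of immature neutrophils, differed by 0.04, 0.83 and 5.22, and had 286, 14.8 and 49.7 FPKM in KO and 0.116, 1.07 and 0.906 FPKM in WT E2 uteri. The granule genes Camp and Elane behaved alike, at 5.11 and 2.04 in E2 and at most 0.44 and 0.03 in the other states. Ngp, Camp and Elane were the 3 of 13 neutrophil genes called with 1 sign (23.1%, against 3.98% of all genes tested). The receptor genes Cxcr2 and Csf3r passed the averaged test with states that differed in sign. The median of the 13 neutrophil markers was 0.01 in intact, 0.21 in ovx and 2.73 in E2 animals, where 11 of 13 were higher in KO. Their summed FPKM overlapped in E2 uteri, at 1625.2 to 15638.6 in KO and 3849.2 to 6277.4 in WT. That sum includes Ltf and Lcn2, which are also on the list of estrogen-induced uterine genes. The part of neutrophil markers in the result was not tested.

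Of 5 tested steroid receptor genes, Pgr and Esr1 were called lower in every state, against 0.957% of all genes tested. Only these 2 of the 5 had 1 sign in every state. Pgr, the progesterone receptor and a known estrogen target, had 6.08, 5.72 and 8.02 FPKM in KO and 25.1, 13.8 and 8.21 FPKM in WT intact uteri, 5.28, 3.95 and 2.74 FPKM in KO and 5.23, 7.88 and 9.22 FPKM in WT ovx uteri, and 2.25, 3.13 and 1.52 FPKM in KO and 11.04, 6.83 and 24.3 FPKM in WT E2 uteri. Only in ovx did 1 KO library stand within the WT range. Pgr fell by 1.27 ± 0.24 on the log2 scale (averaged difference −1.27, limma adjusted p = 0.00734), and its within-set differences ran from −3.33 to −0.71. Esr1, the estrogen receptor, had an averaged difference of −0.69 ± 0.19 (limma adjusted p = 0.0446) that was largest in E2 uteri, with 0.612, 1.99 and 1.22 FPKM in KO and 4.95, 2.99 and 10.04 FPKM in WT. Esr1 passed in 4 of the 18 fits that left out 1 library, and its difference was 0.17 in the larger intact library set. Nr3c1, the glucocorticoid receptor, and Gper, a membrane estrogen receptor, were not called.

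Wnt7a, a WNT ligand of the uterine epithelium, fell on average over the states, with differences of −1.95 in intact, −1.44 in ovx and −1.49 in E2 animals. It had 2.32, 2.39 and 1.49 FPKM in KO and 10.3, 24.0 and 4.71 FPKM in WT intact uteri, 0.385, 0.365 and 0.629 FPKM in KO and 1.71, 3.29 and 4.30 FPKM in WT ovx uteri, and 0.129, 3.06 and 0.366 FPKM in KO and 5.83, 1.76 and 6.40 FPKM in WT E2 uteri. KO lay wholly below WT in intact and ovx animals, and KO E2 replicate 2 lay within the WT range. The averaged difference was −1.63 ± 0.31 (limma adjusted p = 0.00808), and −2.02 without the 3 libraries of lowest correlation in their states. Of 19 epithelial markers Wnt7a was the 1 called with 1 sign (5.26%, against 3.98% of all genes tested). The list median was −0.98 in intact, 1.30 in ovx and −1.49 in E2 animals, and summed epithelial FPKM were 335.8 to 612.8 in KO and 659.3 to 1980.9 in WT intact uteri, 326.7 to 987.7 in KO and 127.1 to 242.9 in WT ovx uteri, and 158.5 to 1096.5 in KO and 1044.9 to 1747.8 in WT E2 uteri. The part of epithelial markers in the Wnt7a difference was not tested.

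Other large decreases included genes with a small difference in ovx uteri. Coro2a, an actin-binding coronin, had 4.05, 2.76 and 4.23 FPKM in KO and 30.6, 20.4 and 37.7 FPKM in WT intact uteri, and 1.28, 5.80 and 1.92 FPKM in KO and 12.9, 7.08 and 16.9 FPKM in WT E2 uteri. Its groups overlapped in ovx, where the difference was −0.14, and the averaged difference was −1.55 ± 0.22 (limma adjusted p = 0.00198). Tmem158 (−1.67 ± 0.36), the tight-junction gene Cldn23 (−1.48 ± 0.27), the transcription factor Sox7 (−1.29 ± 0.28) and the small G protein gene Rasd1 (−1.32 ± 0.22) had ovx differences of −0.39, −0.12, −0.33 and −0.10; the states differed by the F test for Coro2a (adjusted p = 0.0214) and Rasd1 (0.0485) and not for Tmem158 (0.166), Cldn23 (0.0628) or Sox7 (0.219). Cbs, which makes cystathionine from homocysteine, differed by −3.36 in E2 animals and by −0.54 and −0.16 in intact and ovx. Crip1, a LIM-domain protein gene, differed by −1.54, −0.58 and −1.66 in intact, ovx and E2 animals (averaged −1.26 ± 0.20, limma adjusted p = 0.00347), and its ovx libraries overlapped. Slc14a1, Gjb2 and Ifne lost their calls in 9, 15 and 14 of the 18 fits that left out 1 library.

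Called genes with a sizeable difference in every state were ranked by their smallest state difference. It was at least 0.5 on the log2 scale in 120 of the 553 (107 higher, 13 lower) and at least 1 in 28 (26 higher, 2 lower). Among genes with a group mean of at least 5 FPKM and libraries separate in every state, those with the largest smallest difference were Ctla2b, Ctla2a, Rnase4, Gpnmb, Ptgds, Fam180a, LOC100504712, Ang2, Ang4 and Ang3. Fam180a had 6.69, 6.04 and 4.48 FPKM in KO and 0.679, 3.51 and 0.274 FPKM in WT intact uteri and rose by 1.80 ± 0.28 (limma adjusted p = 0.00307). Only 6 lower genes met the same conditions: Ptger4, Srrm1, Mboat2, Wdr77, Stat5b and Ktn1.

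Ptger4, the EP4 receptor for prostaglandin E2, had 2.90, 2.32 and 3.14 FPKM in KO and 4.05, 10.4 and 12.6 FPKM in WT intact uteri, 5.34, 5.65 and 2.26 FPKM in KO and 8.79, 9.84 and 8.47 FPKM in WT ovx uteri, and 1.41, 4.73 and 5.06 FPKM in KO and 9.41, 5.34 and 8.01 FPKM in WT E2 uteri. It fell by 1.06 ± 0.23 (averaged difference −1.06, limma adjusted p = 0.0159), with differences of −1.29, −0.96 and −0.94 in intact, ovx and E2 animals. Stat5b, a transcription factor of cytokine and prolactin receptors, had an averaged difference of −0.55 ± 0.12 (limma adjusted p = 0.0160). Srrm1, which encodes a splicing coactivator, and Ktn1, which encodes kinectin, differed by −0.50 ± 0.11 and −0.52 ± 0.12 (limma adjusted p = 0.0158 and 0.0191). Wdr77, a partner of the arginine methyltransferase PRMT5, had −0.38 ± 0.10 and passed in 7 of the 18 fits that left out 1 library.

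Growth and metabolic lists gave few calls. Of all genes tested, 3.02% were called higher and 0.957% lower with 1 sign in every state. In cell cycle and mitosis genes the medians were 0.32, 0.32 and 0.33 in intact, ovx and E2 animals and 24 of 28 tested genes had 1 sign in every state, against 25.5% of all genes tested. Yet 3 were called, E2f1 (0.57 ± 0.13), Ccne1 (0.50 ± 0.12) and Rrm2 (0.58 ± 0.16), which encode a transcription factor of S-phase entry, cyclin E1 and a subunit of ribonucleotide reductase. Ccne1 passed in 10 and Rrm2 in 3 of the 18 fits that left out 1 library, and none of the list was called within library sets, with the stricter filter or without the E2 state. Ribosomal protein genes leaned the other way, with medians of −0.32, −0.37 and −0.09, and 2 of 76 were called lower, among them Rpl23a, which passed in 5 of those 18 fits as well; none was called within library sets. Of 73 nuclear-encoded oxidative phosphorylation genes 2 were called higher (2.74%, below the share of all genes tested), Ndufa1 and Ndufb6. Each was at 0.01 in intact animals and above 1.2 only in ovx. The list median was −0.20 in intact, 0.91 in ovx and −0.26 in E2. Ndufa1 passed in 4 and Ndufb6 in 5 of the fits that left out 1 library. None of 31 glycolysis and hypoxia genes, 20 pentose phosphate and nucleotide genes or 23 interferon genes was called with 1 sign. Of 33 ATF4 targets, Ddit3 was called higher (0.73 ± 0.18) and the arginine transporter gene Slc7a1 lower (−0.64 ± 0.11), and of 30 sterol and fatty acid genes the desaturase gene Fads1 was called higher (0.99 ± 0.24). Ddit3 and Fads1 passed in 10 and 9 of those fits.

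Extracellular and signalling lists added single genes, where 3.02% of all genes tested were called higher and 0.957% lower with 1 sign. Dkk3, a member of the Dickkopf family, was the 1 gene called with 1 sign among 16 WNT antagonists and targets, and rose by 1.73 ± 0.33 (limma adjusted p = 0.00870). Of 20 collagen chains Col4a1 and Col4a2 of the basement membrane were called higher (1.21 ± 0.34 and 1.17 ± 0.33), but each passed in 3 of the 18 fits that left out 1 library, and no collagen was called within library sets. The creatine transporter gene Slc6a8 rose by 1.04 ± 0.16, and H19, an imprinted noncoding RNA, by 1.14 ± 0.29, with 2.73 in intact, 0.14 in ovx and 0.56 in E2 animals and a call in 9 of those fits. Of 23 estrogen-induced uterine genes Gjb2, which encodes connexin 26, was called lower, and none of 12 progesterone-responsive genes was called with 1 sign. The medians of the estrogen-induced list were −1.29 in intact, 0.59 in ovx and −2.47 in E2 animals.

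Markers of the main cell compartments seldom kept 1 direction over the states. Of all genes tested, 3.98% were called with 1 sign. None of 17 smooth muscle, 14 blood endothelial, 13 stromal, 7 pericyte, 9 adipocyte or 6 lymphocyte genes tested was called with 1 sign in every state. Medians for smooth muscle were 2.23, −0.31 and −0.73 in intact, ovx and E2 animals, for stroma 0.72, −0.95 and 1.5, and for blood endothelium 1.35, −0.63 and 0.82. Summed smooth muscle FPKM were 880.5 to 2689.6 in KO and 201.0 to 806.2 in WT intact uteri, 454.2 to 1659.1 in KO and 1125.2 to 1355.8 in WT ovx uteri, and 418.3 to 562.6 in KO and 400.9 to 1342.2 in WT E2 uteri. Lyve1 was the 1 called of 5 lymphatic endothelial genes (0.94 ± 0.26), with 11.9, 18.04 and 5.20 FPKM in KO and 0.584, 3.55 and 1.06 FPKM in WT intact uteri and differences of 0.06 and 0.53 in ovx and E2. It passed in 3 of the 18 fits that left out 1 library. No gene of the uterine gland, erythrocyte, mesothelial, mast cell, skeletal muscle, ciliated oviduct, ovarian, nerve or urothelial lists was called with 1 sign. Summed adipocyte FPKM were 17.8 to 2490.6 in KO and 21.0 to 67.6 in WT E2 uteri. The part of these shifts in the averaged differences was not tested.

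**Figure D4:**
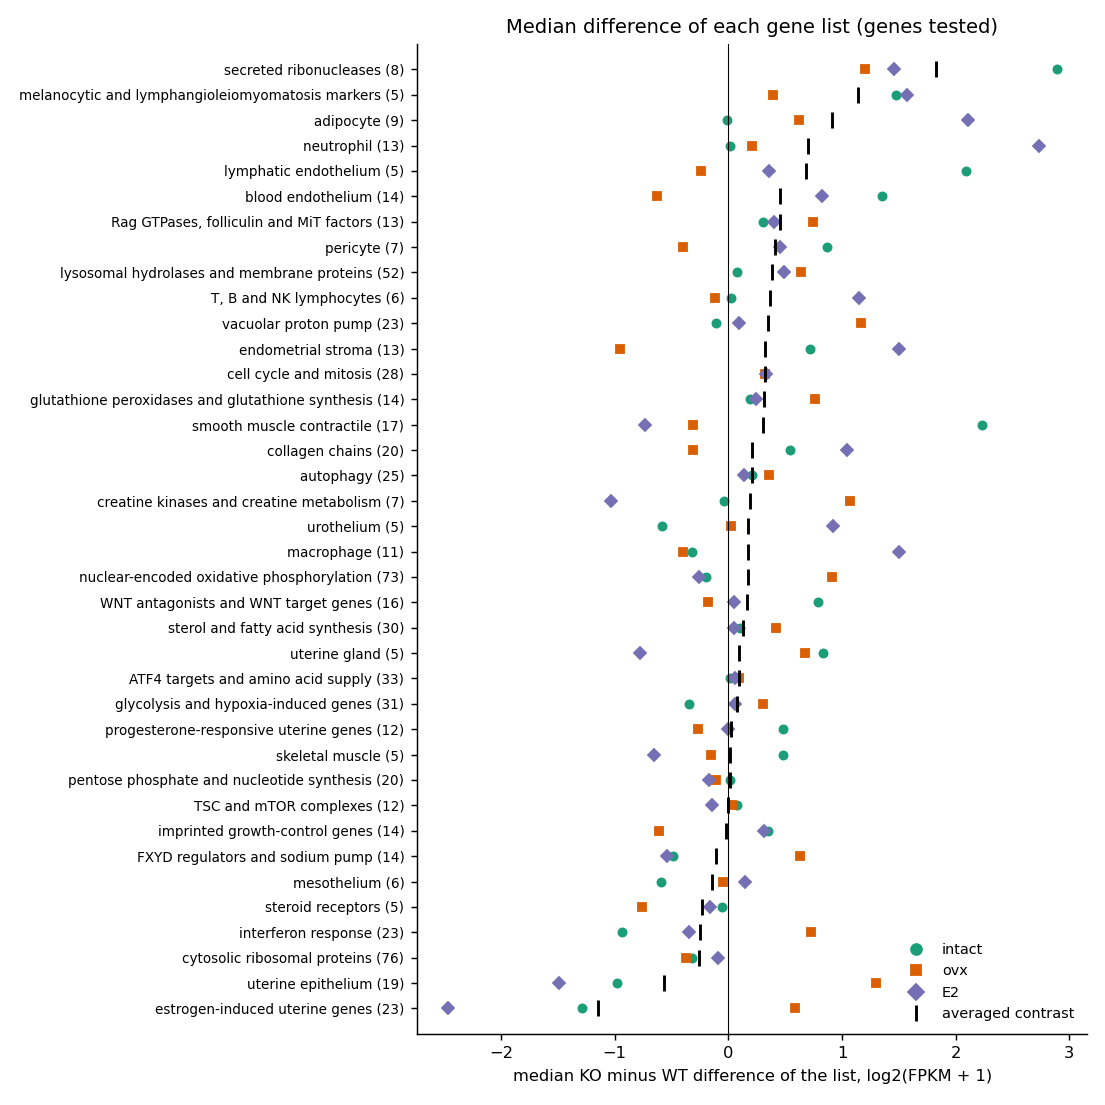
Median KO minus WT difference of log2(FPKM + 1) over the tested genes of each list with at least 5 (number in parentheses), by state (green circles intact, orange squares ovx, purple diamonds E2) and for the averaged contrast (black tick). The ribonuclease, melanocytic, Rag, lysosomal, cell cycle, autophagy, glutathione, sterol, neutrophil and ATF4 lists lie right of 0 in every state, the neutrophil and ATF4 lists by 0.01 in intact. The smooth muscle, stromal, endothelial and epithelial lists lie on both sides.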

How the data were processed

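The 18 uterine libraries (stranded mRNA kit, single end on an Illumina HiSeq2500, per the labels' protocols) were deposited as 1 table of FPKM per gene. Per the submitters' processing notes, the authors used Cufflinks 2.0.2 and Cuffdiff; aligner, annotation and build are not given in the sources used here. Positions in the table overlap those of GRCm38 for 12.4% of 20441 matched symbols, so no position was moved to another build. FPKM are not counts and hold no depth, so no count model was used. A fold on this scale understates changes of low genes.

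From the deposited FPKM, log2(FPKM + 1) was fitted with limma 3.58.1 in R 4.3.3 (1 mean per group, trend), after a filter of at least 1 FPKM in at least 3 libraries. The contrast is the mean of the 3 within-state KO minus WT differences, two-sided, with Benjamini-Hochberg adjustment over 13898 genes and a threshold of 0.05. Differences between states were tested with the F test of the 2 interaction terms. The fit was tested on simulated data. Tables were made with Python 3.11.15.

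The contrast, its members and the 43 gene lists (24 pathways, 19 cell types) were chosen with earlier results of these data known, so no p was adjusted over a list. Named genes were those called with 1 sign and a group mean of at least 5 FPKM: the 15 with the largest averaged difference each way and the 10 each way with the largest smallest state difference among those with separate libraries in every state (6 found lower), with called list members, Tsc2 and Tsc1. Library sets were inferred from FPKM up to 0.05: a median of 7.33% of such values stood in a fixed ratio within a set and 1.59% between sets. The title 4-2 of a WT intact library was read as replicate 4. Alternatives covered pseudocounts, filters, scaling, variance models, library sets, a replicate block, each state and each library left out. Some single-gene results are not reported here.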

Additional observations from a re-analysis of the deposited data

Results flagged for a closer look

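The following called genes had KO minus WT differences that themselves differed between hormone states (limma F test of the genotype by state terms, Benjamini-Hochberg adjusted p given for each). Largest in ovx animals were Rragd (0.00263), Atp6v0d2 (0.00520), Hexa (0.0457) and Galc (0.0492) of the lysosome lists, Gpx3 (0.0327), Gpx6 (0.0449) and Gpx5 (0.0423), Fxyd2 (0.00121), Car4 (0.0102), Ndufa1 (0.0376) and Ndufb6 (0.0236). Atp6v0d2 differed by 1.42 in intact, 3.93 in ovx and 0.63 in E2 animals on the log2 scale, and Galc, a galactosylceramidase, by 0.35, 1.26 and 0.48.

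Largest in E2 animals were the neutrophil granule genes Camp (0.00304), Elane (0.00477) and Ngp (0.0166), and Thbs2 (0.0425), which differed by 1.49 in intact, 0.70 in ovx and 3.83 in E2 animals. Among lower genes Cbs (0.0148) and Slc27a2 (0.0149) had their largest difference in E2, and Coro2a (0.0214) and Rasd1 (0.0485) in intact animals. Slc27a2, an acyl-CoA synthetase of very long chain fatty acids, differed by −0.94, −0.08 and −2.58 in intact, ovx and E2 animals. H19 (0.0486) differed by 2.73, 0.14 and 0.56.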

How the results depend on the processing

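No named gene reversed its sign under any setting run. Of the 820 called genes and the 553 with 1 sign, the counts became 528 with a pseudocount of 0.01 (called), 492 with the stricter filter of 9 libraries (called), 1589 and 1088 with quantile normalization, 3524 and 2071 with array weights (gene-by-gene estimation, since the default did not converge), 471 and 361 within library sets of each state (chosen after seeing the data), 1854 and 1709 without ovx, 381 and 324 without E2, and 2425 and 1398 without the 3 libraries of lowest correlation in their states. Of the 553 genes, 497 were still called with quantile normalization, 399 with a library-set term, 317 within library sets and 504 without those 3 libraries. Genes separate in every state numbered 429 without intact, 709 without ovx, 480 without E2 and 471 without the 3 libraries, since fewer libraries or states must be separate. Genes that differed between states (1407) became 909, 804, 2374, 4482, 643, 279 without ovx, 643 without E2 and 2683 without the 3 libraries, the first 5 under the pseudocount, filter, quantile, weight and within-set settings. Called list members (66 genes) became 175 with weights, 135 without ovx, 41 without E2 and 138 without the 3 libraries. The cause was not tested.

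Leaving out 1 library in turn gave 419 (without WT ovx replicate 3) to 1836 (without KO E2 replicate 2) called genes, 311 to 997 with 1 sign, 116 to 220 separate in every state, 485 to 2361 that differed between states, 45 to 93 list members and a Tsc2 difference of −0.209 to −0.15. Of the 553, 305 to 545 were still called. The called count dropped to 419 to 528, by over 1.5 times, without any one of KO intact replicates 3 and 4, KO ovx replicates 1 and 2, KO E2 replicate 1, WT ovx replicates 1, 2 and 3 and WT E2 replicate 1. List counts with 1 sign ran from 4 to 8 for the Rag list, 3 to 6 for the proton pump, 11 to 20 for the lysosomal list, 2 to 9 for autophagy, 2 to 5 for the melanocytic list and 1 to 10 for the cell cycle, and stayed at 7 for ribonucleases. Of the 92 named genes, 76 had the direction of their average in all 5 combinations of state and library set.

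The labels do not say that the replicate numbers of the titles pair the libraries. Same-numbered deviations correlated at 0.063 and 0.184 in intact, 0.339 and 0.078 in ovx and 0.171 and −0.032 in E2. These values are too few to decide whether the libraries are paired. With the number as a replicate block, limma called 0 genes (called, 1 sign and list members alike), with 2150 at an unadjusted p under 0.05, against 3192 without the block, and 1 gene that differed between states; it leaves 3 residual degrees of freedom, against 12. The permutation test of Tsc2 was not rerun with other filters, without trend, or with weights, set terms or the block.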

Other observations

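Outside the lists, more genes of lysosomal proteins stood among the 553, picked here after their values were seen. Lysosomal genes outside the lists that were not called were not counted, so no share can be given. Clcn7 and Ostm1, which encode the lysosomal chloride exchanger and its partner subunit, rose by 0.78 ± 0.11 and 0.83 ± 0.13 (limma adjusted p = 0.00198 and 0.00389). Clcn7 was higher by 0.63 in intact, 0.66 in ovx and 1.06 in E2 animals, with KO above WT in every library of every state. The peptidase gene Dpp7, the sialic acid exporter gene Slc17a5, the nuclease gene Dnase2a, and Arl8a and Plekhm2, which act in lysosome movement, rose by 0.93, 0.53, 0.61, 0.67 and 0.73.

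Only 3 of the 553 genes passed in each state tested alone: Gpr137b, its near-identical copy Gpr137b-ps and 2410022L05Rik. They were singled out after their values were seen. Gpr137b, a lysosomal membrane protein, had 2.56, 3.09 and 3.09 FPKM in KO and 0.976, 1.32 and 0.636 FPKM in WT intact uteri, 5.80, 4.35 and 5.01 FPKM in KO and 2.67, 1.92 and 2.16 FPKM in WT ovx uteri, and 10.4, 3.62 and 7.61 FPKM in KO and 1.43, 1.47 and 1.68 FPKM in WT E2 uteri. Its averaged difference was 1.17 ± 0.14 (limma adjusted p = 0.000614). For 2410022L05Rik, which RefSeq names Coprs, a partner of PRMT5, the averaged difference was 0.98 ± 0.13 (limma adjusted p = 0.000968).

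Within 5 Mb of Tsc2, 8 of 185 tested genes (4.32%) were called with 1 sign in every state, against 3.98% of all genes tested. Over all tested genes the KO minus WT difference had the same sign in intact and E2 animals for 67.1%, in intact and ovx for 42.3% and in ovx and E2 for 41.5%.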
